A study of Saccharomyces cerevisiae with 9 samples.

Results

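The transcription factor genes MSN2 (YMR037C) and MSN4 (YKL062W), the kinase gene YAK1 (YJL141C) and the stress genes HSP12 (YFL014W), DDR2 (YOL052C-A), SIP18 (YMR175W) and TFS1 (YLR178C) were followed in baker's yeast, Saccharomyces cerevisiae, given succinic acid. They were chosen by name as genes of the general stress response, with the probe set of highest mean standing for a gene. All 7 were on the array, each through 1 probe set, among 5449 yeast genes, and all 7 were among the 4359 genes that passed a filter on low signal. Transcripts were measured on 9 single-colour arrays, 1 for each of the strains KF7, NBRC2018 and NBRC1958 with 0, 20 or 60 g/L succinic acid added. All cultures were grown in YPD, a rich glucose medium, at 35 °C and 200 rpm for 6 hours, per the labels. The labels name the strains and the dose and give no genotype or ploidy.

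Msn2 and Msn4 are related zinc finger proteins that bind the stress response element, a short C-rich promoter motif, and switch on a broad set of genes in heat, osmotic stress, starvation and many other stresses. They act mainly by moving into the nucleus, and protein kinase A, which is driven by Ras and cyclic AMP when glucose is plentiful, keeps them in the cytoplasm, so their transcript levels do not measure their activity. Yak1 is a growth-restraining kinase that opposes protein kinase A and is known to phosphorylate Msn2. HSP12, DDR2, SIP18 and TFS1 are genes that the general stress response is known to raise.

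The deposited values are signal intensities. Array medians over the yeast genes lay between 294 and 311, and between 96.7% and 97.5% of yeast genes on each array exceeded the 95th percentile of probe sets for another organism, which was a signal of 14.7 to 15.9. A dose was thus sampled by its 3 strains, and a strain by its 3 doses. Differences are log2 differences of the signal plus 16, tested with limma over all 4359 genes with Benjamini-Hochberg adjustment, and a gene passed at an adjusted p under 0.05. No strain and dose combination was repeated, and the p-values measure no more than the spread left between these 9 samples. That spread can hold technical variation and dose responses that differ between strains, which cannot be told apart here.

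The transcripts of the factors themselves moved in opposite directions at the high dose, MSN2 up and MSN4 down. At 0, 20 and 60 g/L, MSN2 had signals of 235, 283 and 430.03 in KF7, 351, 366 and 384 in NBRC2018, and 331, 335 and 518 in NBRC1958. All 3 signals at 60 g/L lay above the other 6, which ran up to 366, although NBRC2018 at 60 g/L (384) was little above its own 351 at 0 g/L. MSN2 averaged 444 ± 68.1 at 60 g/L and 305 ± 62.1 at 0 g/L (SD, n = 3 each), a log2 difference of 0.53 (standard error 0.14, adjusted p = 0.0315, higher in 3 of 3 strains).

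MSN4, the member of the pair whose transcription is itself known to respond to stress, had signals of 339.6, 322 and 245 in KF7 at 0, 20 and 60 g/L. It had 404, 449 and 213 in NBRC2018, and 496, 429 and 247 in NBRC1958. All 3 signals at 60 g/L lay below the other 6, which ran upward from 322. How many of all tested genes separate in this way, by dose or by strain, was not counted. MSN4 averaged 235 ± 19.4 at 60 g/L and 413 ± 78.5 at 0 g/L, and its log2 difference of -0.76 passed (standard error 0.135, adjusted p = 0.00847, lower in 3 of 3 strains). At 60 against 20 g/L its difference was -0.72 and passed too (adjusted p = 0.0165). MSN2 and MSN4 did not pass between NBRC2018 and NBRC1958, where their differences were -0.07 (95% interval -0.39 to 0.25) and -0.14 (-0.45 to 0.17).

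YAK1 differed mainly by strain. Its signals at 0, 20 and 60 g/L were 1036, 921 and 1278 in KF7, 638, 841 and 886 in NBRC2018, and 1398, 1175 and 1349.7 in NBRC1958. Every NBRC2018 array lay below every array of the other strains, while KF7 and NBRC1958 overlapped. The dose difference at 60 against 0 g/L was 0.24 (95% interval -0.08 to 0.56) and did not pass.

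**Figure D1:**
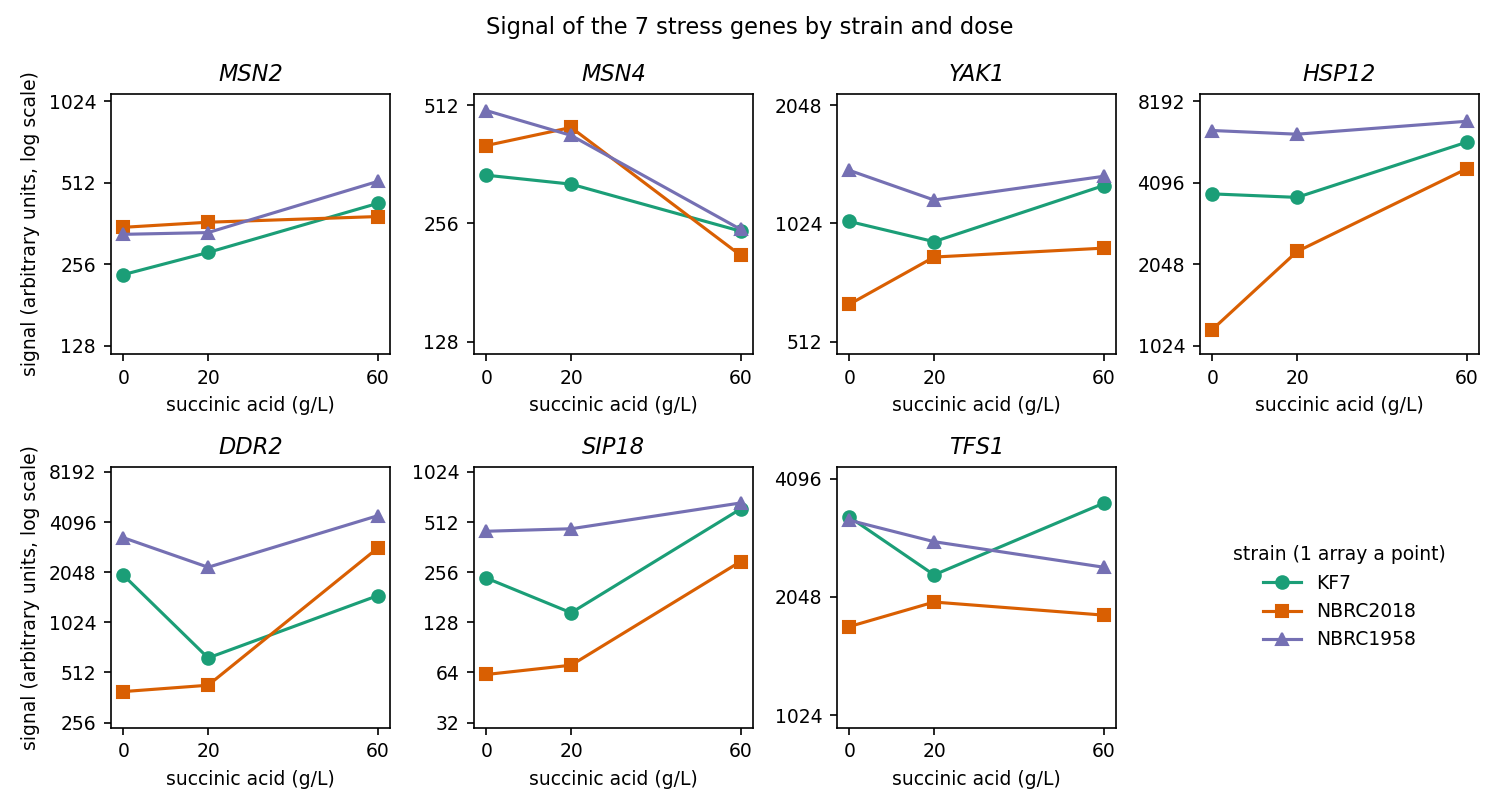
Signal of each gene (vertical axis, log scale, arbitrary intensity units) at 0, 20 and 60 g/L succinic acid (horizontal axis), 1 panel per gene and 1 line per strain, each point being 1 array. MSN4 is lowest at 60 g/L in all 3 strains, and NBRC2018 is the lowest strain at 0 g/L for YAK1, HSP12, DDR2, SIP18 and TFS1.

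Among the stress genes, NBRC2018 had the lowest and NBRC1958 the highest mean for HSP12, DDR2 and SIP18, and for TFS1 NBRC2018 was lowest and KF7 highest. HSP12, which encodes a small membrane-associated stress protein, had signals of 3731, 3621 and 5789.9 in KF7 at 0, 20 and 60 g/L. It had 1176, 2285 and 4617 in NBRC2018, and 6397, 6199.7 and 6919 in NBRC1958. The 3 strains stood in the same order at each dose, NBRC2018 lowest and NBRC1958 highest, and NBRC2018 was 5.44-fold below NBRC1958 at 0 g/L, 2.71-fold at 20 g/L and 1.499-fold at 60 g/L. The highest signal of any probe set on an array was between 8567 and 9468, so HSP12 in NBRC1958 was in the top of the scale, and whether the scanner was near saturation there was not tested.

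DDR2, a small protein gene first found by its response to DNA damage, had signals of 1964, 626 and 1479.6 in KF7, 393, 429 and 2855 in NBRC2018, and 3298, 2192 and 4467 in NBRC1958. Its 20 g/L signal was the lowest of the 3 doses in KF7 and NBRC1958, and its 60 g/L signal was the highest in NBRC2018 and NBRC1958. SIP18, which encodes a hydrophilic protein linked to desiccation and osmotic stress, had signals of 236, 146 and 613 in KF7, 62.2, 70.7 and 297 in NBRC2018, and 451, 467 and 666 in NBRC1958. SIP18 was highest at 60 g/L in every strain, and every NBRC1958 array exceeded every NBRC2018 array.

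TFS1, which encodes an inhibitor of the vacuolar protease carboxypeptidase Y that also binds the Ras regulator Ira2, had signals of 3271, 2331 and 3545 in KF7, 1723, 1988 and 1842 in NBRC2018, and 3209, 2831 and 2438 in NBRC1958. All 3 NBRC2018 arrays lay below all others, and no dose stood apart.

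Taking the 3 doses of a strain as its samples, NBRC2018 against NBRC1958 was the pair that differed in most of these genes. Of the 7 genes 5 passed, as they did in the test for any strain difference (36.2% of all tested genes), and all 5 were lower in NBRC2018, where 27.9% of all tested genes passed, 16.3% higher and 11.5% lower. HSP12 averaged 2693 ± 1756 in NBRC2018 and 6505 ± 372 in NBRC1958 (SD over 3 doses), a log2 difference of -1.48 (95% interval -2.15 to -0.81, adjusted p = 0.0114). SIP18 averaged 143 ± 133 in NBRC2018 and 528 ± 120.3 in NBRC1958, and its difference of -2.06 was the largest of the 7 (-2.72 to -1.40, adjusted p = 0.00419). Its NBRC2018 signals at 0 and 20 g/L, 62.2 and 70.7, were below the level of 118 at which genes were filtered by mean. Under other settings and with arrays left out, the SIP18 difference ran from -2.53 to -1.67.

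DDR2 was 1226 ± 1411 in NBRC2018 and 3319 ± 1138 in NBRC1958, with a difference of -1.99 (adjusted p = 0.0236). YAK1 differed by -0.73 (adjusted p = 0.0102) and TFS1 by -0.60 (adjusted p = 0.0342). Each of the 5 was lower in NBRC2018 at 3 of 3 doses. SIP18 passed whichever 1 of the 9 arrays was left out. With NBRC1958 at 0 g/L left out it was the only gene of the 7 to pass, and 406 of 4359 genes passed in place of 1214. With NBRC1958 at 20 g/L left out SIP18 and YAK1 passed, and with NBRC2018 at 0 g/L left out these and HSP12 did, DDR2 then having -1.32 (adjusted p = 0.0728). DDR2 lost the call also with NBRC2018 at 20 g/L left out (adjusted p = 0.0741), and TFS1 with NBRC2018 at 60 g/L left out (adjusted p = 0.097).

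KF7 lay between the other strains for most of these genes. Against NBRC2018, 2 of 7 passed, both higher in KF7, where 16.4% of all tested genes passed, 7.13% higher and 9.29% lower. SIP18 averaged 332 ± 248 in KF7 and 143 ± 133 in NBRC2018, a difference of 1.199 (adjusted p = 0.0307). TFS1 averaged 3049 ± 637 in KF7 and 1851 ± 133 in NBRC2018, a difference of 0.695 (adjusted p = 0.032). Both were higher in KF7 at 3 of 3 doses. Both lost the call with KF7 at 0 or 60 g/L or NBRC2018 at 0 g/L left out, SIP18 also with NBRC2018 at 20 g/L and TFS1 with NBRC2018 at 60 g/L left out (adjusted p between 0.0889 and 0.124).

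HSP12 (0.88, adjusted p = 0.0764), YAK1 (0.445, adjusted p = 0.0637) and DDR2 (0.62, adjusted p = 0.421) did not pass between KF7 and NBRC2018. HSP12 passed there with NBRC1958 at 60 g/L (adjusted p = 0.0416) or NBRC2018 at 60 g/L (0.0359) left out. Against NBRC1958 none of the 7 passed in KF7 by limma, where 19.1% of all tested genes passed, 9.45% higher and 9.66% lower, and 3 of the 7, MSN4, DDR2 and SIP18, had an unadjusted p under 0.05. The differences of KF7 against NBRC1958 were -0.31 for MSN4, -1.37 for DDR2, -0.86 for SIP18 and -0.60 for HSP12. With only the 6 arrays of these strains in the fit, HSP12 (adjusted p = 0.0418) and DDR2 (adjusted p = 0.0168) passed, and with NBRC1958 at 60 g/L left out SIP18 passed, at -1.28 (adjusted p = 0.00612). HSP12 also passed with NBRC2018 at 0 g/L left out, and DDR2 with NBRC2018 at 0 or 60 g/L or KF7 at 0 g/L left out (adjusted p between 0.0215 and 0.0473).

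**Figure D2:**
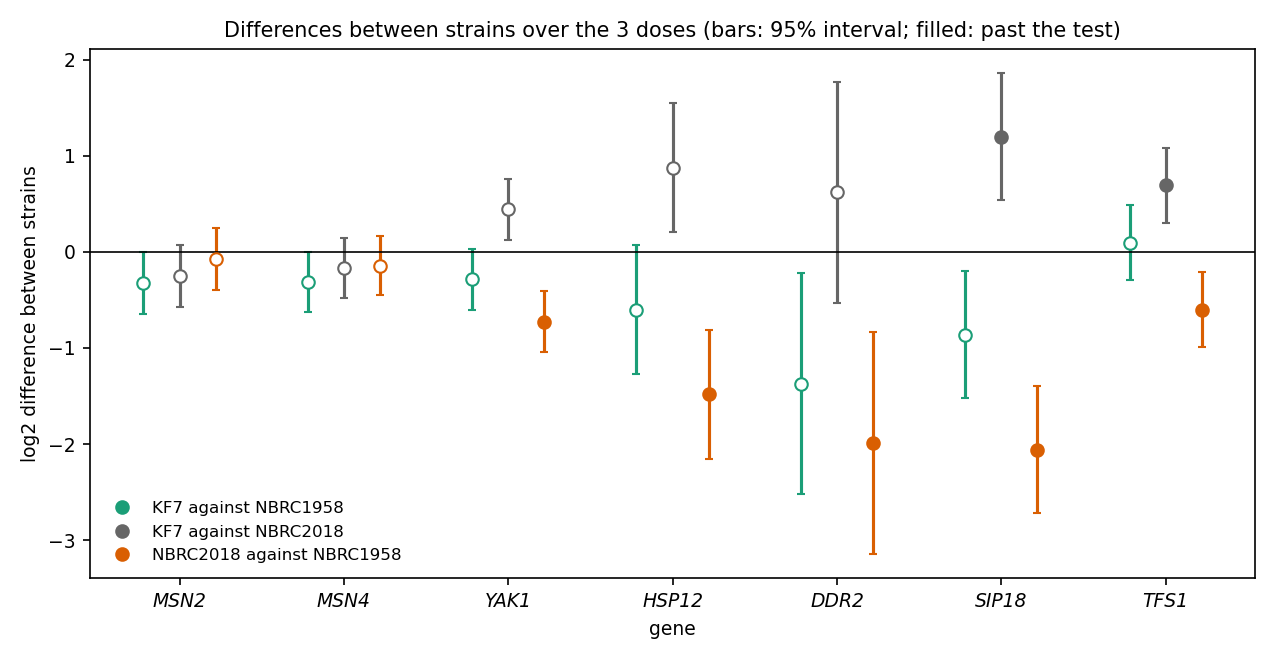
Log2 difference between strains (vertical axis) for each gene (horizontal axis), from the additive fit over 9 arrays, with bars for the 95% interval and filled points for an adjusted p under 0.05. NBRC2018 against NBRC1958 is below 0 for YAK1, HSP12, DDR2, SIP18 and TFS1 with intervals clear of 0, while the intervals of MSN2 and MSN4 span 0.

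The strains were next compared in basal level, without added acid. At 0 g/L, where each strain had 1 array, the NBRC2018 signal was 8.39-fold lower than the NBRC1958 signal for DDR2, 7.24-fold lower for SIP18, 5.44-fold lower for HSP12, 2.19-fold lower for YAK1 and 1.86-fold lower for TFS1. The KF7 signal at 0 g/L was 4.999-fold above that of NBRC2018 for DDR2, 3.79-fold for SIP18 and 3.17-fold for HSP12. KF7 and NBRC1958 lay closer, with log2 differences at 0 g/L of -0.78 for HSP12, -0.74 for DDR2 and -0.89 for SIP18. MSN2 and MSN4 had another order at 0 g/L, with KF7 lowest. MSN2 had 351 in NBRC2018, 331 in NBRC1958 and 235 in KF7, and MSN4 had 404, 496 and 340 in the same order. The SIP18 ratios to NBRC2018 rest on a low signal of 62.2 in that strain. A single array per strain allows no test of these values.

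The basal level was therefore also taken from a straight line on dose in each strain, read at 0 g/L. Between NBRC2018 and NBRC1958 4 of 7 genes passed, all lower in NBRC2018, where 14.2% of all tested genes passed, 7% higher and 7.18% lower. The differences at 0 g/L were -2.27 for HSP12 (95% interval -2.71 to -1.82, adjusted p = 0.00394), -2.74 for SIP18 (adjusted p = 0.0221), -3.05 for DDR2 (adjusted p = 0.038) and -0.91 for YAK1 (adjusted p = 0.0327). TFS1 had -0.80 and did not pass (adjusted p = 0.0641). MSN2 had 0.17 (adjusted p = 0.397) and MSN4 -0.15 (adjusted p = 0.642), and neither passed. For KF7 against NBRC2018 the basal difference of MSN2 was -0.57 and did not pass (adjusted p = 0.0659).

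HSP12 was the gene that also passed in the other pairs. Its basal level in KF7 was 1.42 above that of NBRC2018 (0.97 to 1.86, adjusted p = 0.0134), the 1 call of 7 in that pair, where 4.34% of all tested genes passed, 2.36% higher and 1.97% lower. In KF7 it was 0.85 below NBRC1958 (difference -0.85, adjusted p = 0.0433), the 1 call of 7 there, where 7.96% passed, 3.35% higher and 4.61% lower. These fits have 3 residual degrees of freedom, and the spread they use is the departure of the samples from the straight lines. With NBRC2018 at 0 g/L left out the HSP12 difference between NBRC2018 and NBRC1958 was -1.95 (adjusted p = 0.107), and with NBRC1958 at 0 g/L left out it was -2.18 (adjusted p = 0.134). YAK1, DDR2 and SIP18 lost the call in that pair with any 1 array of either strain left out (adjusted p between 0.0667 and 0.414). In those fits 1 to 63 of 4359 genes passed, in place of 618. TFS1 passed there with any 1 KF7 array left out (adjusted p = 0.0121), where 1079 of 4359 genes passed. Leaving out any array of the strain outside a pair gives the same fit, since its other arrays then lie exactly on their line. HSP12 lost the call for KF7 against NBRC2018 with the 0 g/L array of either strain left out (0.274 and 0.12), and for KF7 against NBRC1958 with any 1 array of NBRC1958 or NBRC2018 left out (0.067 to 0.316).

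Between the highest dose and none, 3 of the 7 genes passed, set beside 22.8% of all tested genes, 8.67% higher and 14.2% lower. The 3 were MSN2 and SIP18, both higher at 60 g/L, and MSN4, lower. The test for any dose difference was passed by 2 of the 7, MSN4 and SIP18, and by 16.6% of all tested genes, and MSN2 did not pass it (adjusted p = 0.0646). SIP18 averaged 525 ± 199.97 at 60 g/L and 249.6 ± 195 at 0 g/L, a log2 difference of 1.29 (standard error 0.287, adjusted p = 0.0181), and was higher in 3 of 3 strains, by 2.60 times in KF7, 4.77 times in NBRC2018 and 1.48 times in NBRC1958. Its groups overlapped, since 297 in NBRC2018 at 60 g/L was below 451 in NBRC1958 at 0 g/L.

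HSP12 averaged 5775 ± 1151 at 60 g/L and 3768 ± 2611 at 0 g/L, and its difference of 0.90 did not pass (95% interval 0.23 to 1.57, adjusted p = 0.0583), although it was above 0 in 3 of 3 strains. It passed with NBRC1958 at 60 g/L left out, at 1.21 (adjusted p = 0.0312). DDR2 had a difference of 0.95 with a wide interval of -0.21 to 2.10 (adjusted p = 0.194), and TFS1 one of -0.06 (-0.45 to 0.33). With NBRC1958 at 0 g/L left out none of the 7 passed by limma, with adjusted p of 0.123 for MSN2, 0.0568 for MSN4 and 0.0616 for SIP18, and 217 of 4359 genes passed in place of 995. The MSN2 call ended also with any 1 KF7 array or NBRC1958 at 60 g/L left out (adjusted p between 0.0515 and 0.117), and the SIP18 call with NBRC2018 at 0 or 60 g/L or KF7 at 60 g/L left out (adjusted p between 0.0503 and 0.0621).

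The low dose gave no call. At 20 against 0 g/L none of the 7 passed by limma and none had an unadjusted p under 0.05. Over the whole array 0.0229% of tested genes passed, 1 of 4359, and 158 had an unadjusted p under 0.05. The differences ran between -0.697 for DDR2 and 0.29 for HSP12. Within NBRC2018 all 7 genes were above 0 at 20 against 0 g/L, with HSP12 at 1.94 times its level, against 1 of 7 in KF7 and 2 of 7 in NBRC1958. Of all 4359 tested genes, 2221 were above 0 in NBRC2018, 2348 in KF7 and 2115 in NBRC1958. These counts rest on 1 array per strain and dose, and the NBRC2018 array at 0 g/L enters both them and the basal comparisons.

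Between 60 and 20 g/L, 2 of 7 genes passed, set beside 15.9% of all tested genes, 5.78% higher and 10.2% lower. SIP18 averaged 525 ± 199.97 at 60 g/L and 228 ± 210.2 at 20 g/L, a difference of 1.44 (adjusted p = 0.0188), and MSN4 passed at the value given above. DDR2 averaged 2934 ± 1495 at 60 g/L and 1082 ± 966 at 20 g/L, and its difference of 1.64 did not pass (95% interval 0.49 to 2.80, adjusted p = 0.0581), although it was above 0 in 3 of 3 strains. DDR2 passed with NBRC2018 at 0 g/L left out (adjusted p = 0.0261), with KF7 at 0 or 60 g/L left out (0.0397 and 0.0398), and with only the arrays of these doses (0.0349). MSN4 lost the call with NBRC1958 or NBRC2018 at 20 or 60 g/L left out (adjusted p between 0.0512 and 0.0721), and SIP18 with NBRC2018 at 20 or 60 g/L or KF7 at 20 g/L left out (0.0589 to 0.0765).

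**Figure D3:**
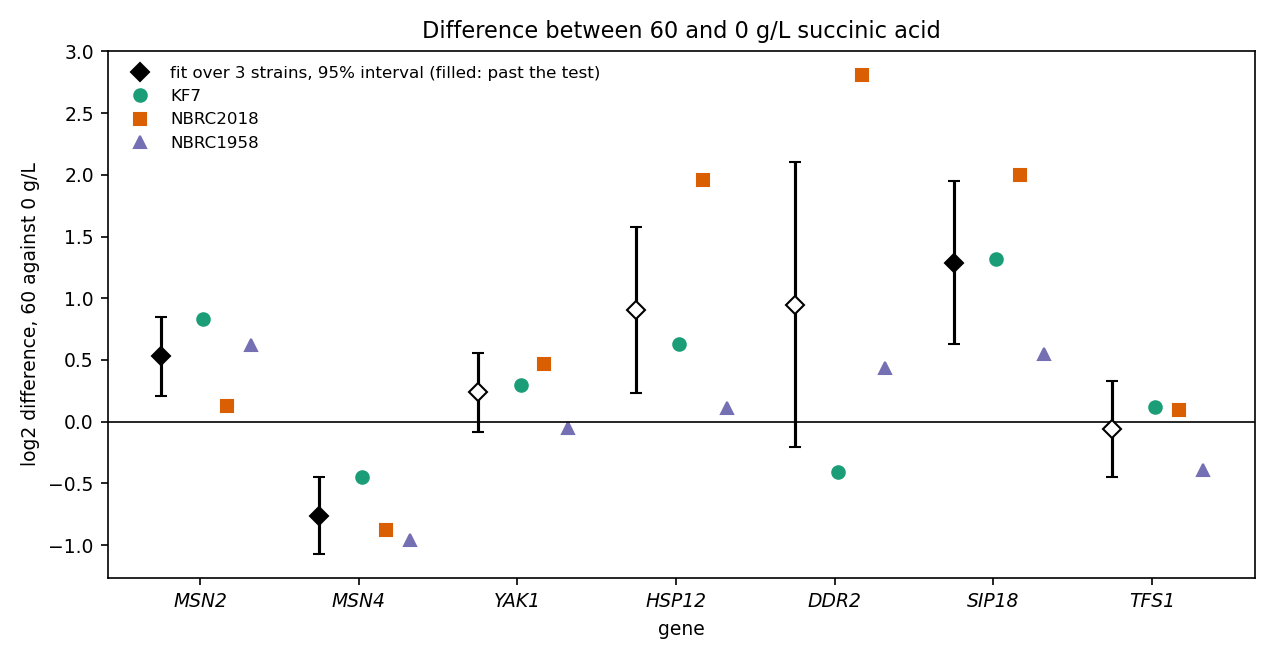
Log2 difference at 60 against 0 g/L (vertical axis) for each gene (horizontal axis), with a coloured point for each strain (1 array per dose) and a black diamond with a 95% interval for the additive fit over 9 arrays, filled where the adjusted p was under 0.05. MSN2 and SIP18 are above 0 and MSN4 is below 0 in all 3 strains, and HSP12 and DDR2 spread most, with NBRC2018 highest at 1.96 and 2.81.

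The strains were also set side by side in their dose differences. At 60 against 0 g/L HSP12 had log2 differences of 0.63 in KF7, 1.96 in NBRC2018 and 0.11 in NBRC1958. DDR2 had -0.41, 2.81 and 0.44 in the same order, and SIP18 had 1.32, 1.998 and 0.55. NBRC2018, the strain with the lowest basal level, thus had the highest difference for each of these 3 genes.

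The test of the difference in slope between strains was passed by none of the 7 genes and by none of the 4359 in any pair (limma, 0% of genes). For NBRC2018 against NBRC1958 the slope over 60 g/L differed by 1.76 for HSP12 (95% interval 1.04 to 2.49, adjusted p = 0.422), by 2.39 for DDR2 (-0.34 to 5.12, adjusted p = 0.498) and by 1.53 for SIP18 (-0.27 to 3.34, adjusted p = 0.498). The slope of MSN2 differed the other way, by -0.54 (-1.06 to -0.02, adjusted p = 0.455). In that pair 2 of the 7 genes, HSP12 and MSN2, and 463 of all genes had an unadjusted p under 0.05. The count was 0 of 7 and 455 for KF7 against NBRC1958, and 3 of 7 and 276 for KF7 against NBRC2018. The slope within a strain passed by limma for HSP12 in NBRC2018 (1.89, adjusted p = 0.0354). In NBRC1958 it passed for MSN2 (0.67, adjusted p = 0.0373) and MSN4 (-0.98, adjusted p = 0.0417). In KF7 it passed for 0 of 7. Of all 4359 genes 23 passed in NBRC2018, 646 in NBRC1958 and 39 in KF7. These slopes were not repeated with arrays left out. The slope and the basal level come from the same line, so the 0 g/L arrays move both.

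A list of 45 other genes known as targets of Msn2 and Msn4 was described beside the 7, with 41 of them tested and GRE1, XBP1, PAI3 and MOH1 below the filter. Of these, 30 of 41 were lower in NBRC2018 than in NBRC1958, 2 were higher and 9 did not pass, with a median of -0.67 against 0.06 for all tested genes, of which 11.5% were lower and 16.3% higher. NQM1, a minor transaldolase, averaged 125.5 in NBRC2018 and 754.5 in NBRC1958 (difference -2.46), and the membrane protein gene PHM7 averaged 137 in NBRC2018 and 895 in NBRC1958 (-2.54). HSP104, the protein disaggregase, averaged 1752 in NBRC2018 and 3188 in NBRC1958 (-0.93). These 3 passed whichever 1 array was left out.

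The 2 list genes higher in NBRC2018 were ALD3, a cytosolic aldehyde dehydrogenase, and HSP26, a small heat shock protein. HSP26, named here after its values were seen, had signals of 5954, 5976 and 2603 in NBRC2018 and 1576, 669.7 and 2342 in NBRC1958 at 0, 20 and 60 g/L (difference 1.73, adjusted p = 0.033), and it passed with 5 of the 9 single arrays left out. ALD3 was highest in KF7, with signals of 619, 513 and 1142, against 109.96, 185 and 266 in NBRC2018 and 60.1, 56.1 and 58.6 in NBRC1958, and its differences were 1.92 for KF7 against NBRC2018 and 3.30 for KF7 against NBRC1958. In NBRC1958 it was near the lower end of the scale at every dose. Sequence differences between these strains and the reference behind the probe sets were not examined, and their part in the strain differences was not tested.

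The count of 30 lower list genes was 14 with NBRC1958 at 0 g/L left out, 14 with that strain at 20 g/L, 15 with NBRC2018 at 0 g/L and 16 with that strain at 60 g/L. In these fits 406, 395, 432 and 625 of all 4359 genes passed in either direction, in place of 1214. At each single dose most of the list was lower in NBRC2018 than in NBRC1958: 39 of 41 at 0 g/L (median -0.92), 37 at 20 g/L (median -0.46) and 38 at 60 g/L (median -0.59). Of all 4359 tested genes, 1983, 1766 and 1841 were lower at these doses. For KF7 against NBRC2018 12 of 41 list genes were higher and none lower (median 0.31), and for KF7 against NBRC1958 1 was higher and 7 were lower (median -0.23). All tested genes were 7.13% higher and 9.29% lower in the first pair, and 9.45% higher and 9.66% lower in the second. On the fitted basal level 21 list genes were lower and 1 higher in NBRC2018 than in NBRC1958 (median -0.89). There 7.18% of all tested genes were lower and 7% higher.

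At 60 against 0 g/L 12 of the 41 list genes rose, none fell and 29 did not pass, with a median of 0.25 against -0.05 for all tested genes, of which 8.67% were higher and 14.2% lower. SSA4, a heat-inducible Hsp70 chaperone, averaged 3315 at 60 g/L and 422 at 0 g/L (difference 2.80). HSP104 rose by 1.01, NQM1 by 1.22, SPI1, a cell wall protein gene, by 1.22, SOL4, of the pentose phosphate pathway, by 1.09, and the small heat shock protein gene HSP42 by 0.91. HSP42 lost the call with NBRC1958 at 0 g/L left out (adjusted p = 0.0532), and the other 5 passed whichever 1 array was left out. These 6 were the list genes of smallest p in that comparison. DDR48 and CTT1 were list genes named after their values were seen. DDR48 was lower at 60 than at 0 g/L in every strain, and CTT1 was higher in NBRC2018 only. DDR48 had 2334 at 60 and 3042 at 0 g/L in KF7, 2230 and 2952 in NBRC2018, and 2392 and 3010 in NBRC1958. CTT1 had 2743 and 2966, 1779 and 781, and 4252 and 4274 in the same order. The count of 12 was 6 with NBRC1958 at 0 g/L left out and 7 with NBRC2018 at 0 g/L left out. In these fits 217 and 734 of all 4359 genes passed in either direction, in place of 995.

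Within strains, of the 41 genes at 60 against 0 g/L, 36 were above 0 in NBRC2018 (median 0.49), 31 in KF7 (0.25) and 21 in NBRC1958 (0.01). Of all 4359 tested genes, 1883, 1933 and 1863 were above 0 in the same order. At 20 against 0 g/L, where none of the 41 passed by limma, 40 of 41 were above 0 in NBRC2018 (median 0.34), against 6 in KF7 (-0.26) and 5 in NBRC1958 (-0.13). There 2221, 2348 and 2115 of all tested genes were above 0 in these strains. None of the 41 passed the test of a difference in slope between strains.

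**Figure D4:**
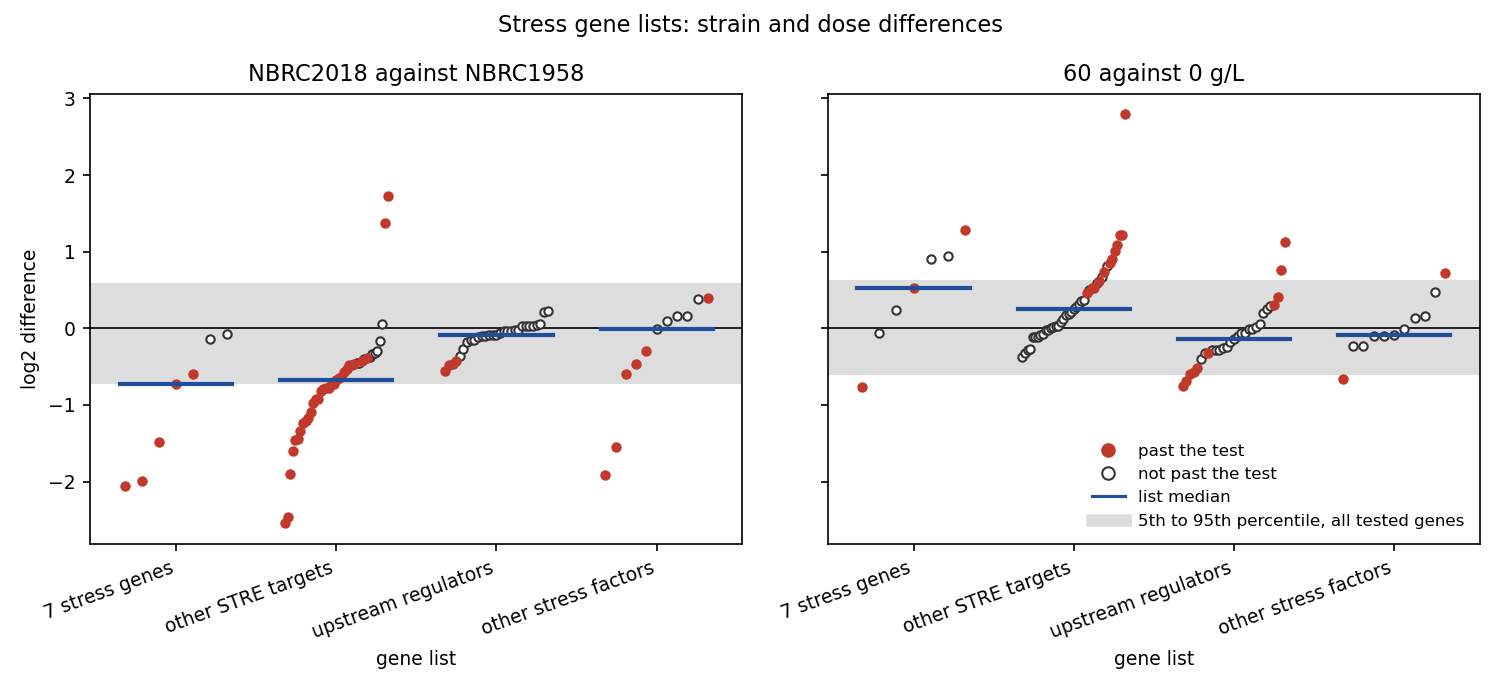
Log2 difference of each tested gene (points, filled past the test) for the 7 genes and 3 lists (horizontal axis), for NBRC2018 against NBRC1958 (left) and 60 against 0 g/L (right), with blue bars for list medians and a grey band for the 5th to 95th percentile of all tested genes. The medians of the 7 genes and of the other STRE (stress response element) targets are -0.73 and -0.67 on the left, and 0.53 and 0.25 on the right.

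Upstream regulators of Msn2 and Msn4, in the Ras, protein kinase A, Tor and related pathways, were described in the same way. Of 29 tested genes 4 rose and 6 fell at 60 against 0 g/L, with a median of -0.14, and of all tested genes 8.67% were higher and 14.2% lower. PDE2, the high-affinity phosphodiesterase that breaks down cyclic AMP, had signals of 368, 445.5 and 831 in KF7 at 0, 20 and 60 g/L, 308, 325 and 561 in NBRC2018, and 359, 431 and 984 in NBRC1958. Its signals at 60 g/L lay above all others, and it rose by 1.13 (standard error 0.119, adjusted p = 0.00195).

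IRA2 and IRA1, whose products switch Ras off, rose by 0.76 and 0.41. IRA2 averaged 1239.96 at 60 g/L and 717 at 0 g/L. TOR2, a Tor kinase gene named after its values were seen, rose by 0.304 and lost the call whichever 1 array was left out. Among the falls, PSR1, a phosphatase needed for the full stress response, had a difference of -0.57, GPA2, the G protein of glucose sensing, one of -0.595, and RAS1 one of -0.69. The protein kinase A subunit genes TPK2 (-0.75) and BCY1 (-0.51) and the 14-3-3 gene BMH2 (-0.33), all named after their values were seen, fell as well. With each array left out in turn, BMH2 passed in 1 of 9 fits, RAS1 in 4, TPK2 and BCY1 in 5 each, and IRA1, PSR1 and GPA2 in 7 each. BMH2 also did not pass after quantile normalization (adjusted p = 0.0623) or median centring (0.0557). PDE2 and IRA2 passed whichever 1 array was left out. The count of 10 was 2 with NBRC1958 at 0 g/L left out, 2 with KF7 at 0 g/L and 5 with NBRC2018 at 60 g/L. In these fits 217, 543 and 644 of all 4359 genes passed, in place of 995.

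Between strains, 4 of these 29 regulators were lower in NBRC2018 than in NBRC1958 and none was higher, with a median of -0.09, where 11.5% of all tested genes were lower and 16.3% higher. They were RAS2 (-0.56), CYR1, the adenylate cyclase gene (-0.48), PDE2 (-0.46) and PSR1 (-0.42), of which CYR1 was named after its values were seen. With each array left out in turn, RAS2 passed in 7 of 9 fits, CYR1 in 5, and PDE2 and PSR1 in 4 each. PSR1 was highest in KF7, with a mean of 456 against 209 in NBRC2018 and 281 in NBRC1958, and RAS1 likewise, with 467 against 255 and 245. IRA1 was lowest in KF7, with 400.6 against 535 in NBRC2018 and 542 in NBRC1958.

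Of 11 tested genes for other stress transcription factors, RPH1, a histone demethylase gene, rose at 60 against 0 g/L (0.72) and SKO1, a repressor of osmotic stress genes, fell (-0.66). These 2 of 11 stand beside 22.8% of all tested genes. RPH1 passed with 5 and SKO1 with 7 of the 9 single arrays left out. The zinc finger genes USV1 and RGM1 were lower in NBRC2018 than in NBRC1958, USV1 with means of 297 in NBRC2018 and 1114 in NBRC1958 (-1.92) and RGM1 with 104 in NBRC2018 and 342 in NBRC1958 (-1.55). Both passed whichever 1 array was left out. In all 5 of the 11 were lower and 1 was higher in NBRC2018, where 11.5% of all tested genes were lower and 16.3% higher. RPH1 (-0.60), GIS1 (-0.46) and HSF1 (-0.29) and, higher, SKN7 (0.397) passed with only 2 or 3 of the 9 single arrays left out. COM2 was lower in KF7 than in NBRC2018 (-1.08) and NBRC1958 (-0.70), with the call kept in 8 and 3 of 9 such fits. GIS1 and SKN7 were named after their values were seen.

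Paralogs and protein partners of the 7 genes were followed as well. HOR7, the paralog of DDR2, had signals between 7561 and 8786 on the 9 arrays, close to the top of the scale, and a difference of 0.03 at 60 against 0 g/L (95% interval -0.16 to 0.21). GRE1, the paralog of SIP18, was below the filter and not tested, with signals at 0, 20 and 60 g/L of 56.7, 48.5 and 131.6 in KF7, 39.5, 38.1 and 69.9 in NBRC2018, and 108, 141 and 184 in NBRC1958. As for SIP18, its 60 g/L signal was the highest of each strain and NBRC2018 was the lowest strain at each dose. YLR179C, the gene next to TFS1 and related to it, had a difference of -0.21 at 60 against 0 g/L and one of 0.06 for NBRC2018 against NBRC1958, and neither passed.

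PRC1, which encodes carboxypeptidase Y, the protease that Tfs1 inhibits, averaged 1223 in NBRC2018 and 1751 in NBRC1958, a difference of -0.51 (adjusted p = 0.0276) that passed with 5 of the 9 single arrays left out. POP2, a deadenylase gene whose product Yak1 is known to phosphorylate, had -0.27 at 60 against 0 g/L and did not pass (adjusted p = 0.108). CRF1, a corepressor gene of ribosomal protein genes downstream of Yak1, was below the filter, with signals between 30.1 and 75.2.

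The 7 genes fell into unlike patterns over the 9 arrays. Strain held 74.9% of the variation of YAK1, 73.8% of TFS1, 60.03% of HSP12, 57.96% of SIP18 and 47.04% of DDR2, against a median of 45.96% over all tested genes. Dose held 79.2% of the variation of MSN4 and 58.5% of MSN2, against a median of 27.9%, and 3.11% of TFS1. HSP12 and SIP18 had a Pearson correlation of 0.94 over the 9 arrays, YAK1 and HSP12 one of 0.93, and YAK1 and SIP18 one of 0.91, while MSN2 and MSN4 had -0.44. These points share 3 strains and 3 doses, so the correlations are given as a description with no test.

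The tested genes most like each of the 7 by Pearson correlation over the 9 arrays were named, 3 for each. For YAK1 they were GDB1, the glycogen debranching enzyme (0.976), MSC1 (0.976) and SNO4 (0.974), and for TFS1 they were UGA2 (0.98) and GAD1 (0.967), enzymes of the breakdown of glutamate through gamma-aminobutyrate, and PLN1 (0.962). For SIP18 they were FMP16 (0.973), AHC1 (0.966) and SOL4 (0.954), for HSP12 CUZ1 (0.974), IDH1 (0.972) and SAT4 (0.969), and for DDR2 AVT3 (0.953), ACS1, an acetyl-CoA synthetase (0.947), and ADP1 (0.946).

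For MSN2 the nearest genes were SGT1 (0.967), QNS1 (0.949) and HST3 (0.937), and for MSN4 they were PUB1, an RNA-binding protein (0.975), CEM1 (0.968) and MTC1 (0.963). Once the mean of each strain was taken out, 3 of these 21 genes stayed among the nearest 3, SGT1, ACS1 and GAD1. The others were outranked, with correlations such as 0.985 for CEM1 and 0.967 for HST3, and the lowest of the 21 was 0.897, for PLN1. All 21 were picked by correlation over these same arrays, so high values here are partly built in. The level for genes not so picked was not taken. MSC1, GAD1 and SOL4 belong to the list of 45 targets.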

How the data were processed

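Total RNA of 9 yeast samples, 1 per strain and dose, was labelled as biotinylated cRNA and hybridised to single-colour arrays, per the labels' protocols. The authors deposited a linear intensity for each probe set of an array, already normalized and summarized. Scanning, background correction and the kind of normalization are not given in the sources used here. GEO's platform annotation gave 1 yeast gene to 5498 of 10928 probe sets, and symbols were updated through a reference gene table. For 47 genes with several probe sets the one of highest mean was used. The lowest 20% of genes by mean log2 level (1090 genes, below a signal of 118) were left out.

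The log2 of the intensity plus 16 went into lmFit and eBayes of limma (version 3.58.1, under R 4.3.3). Strain and dose were additive factors, with 4 residual degrees of freedom. A second fit had a straight line on dose per strain, with 3. Strain is a block because arrays of 1 strain are the same strain. Deviations from the dose means correlated at 0.59 to 0.87 within a strain and at -0.64 to -0.14 between strains. Taking out the mean of the strains at a dose by itself pushes the values between strains below 0. Self-tests on simulated data were run. The number of arrays limits the precision.

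The 7 genes and the lists were chosen with earlier results of these data known. Named were the 7 genes, for each the 3 genes of highest correlation, from each list up to 6 genes by p at 60 against 0 g/L and up to 4 by the strain test, and all paralogs and partners. Alternatives were 2 other normalizations, other filters, offsets of 1 and 64, a mean over probe sets, a trend, a robust fit, fewer terms or arrays, dose as a rank, and fits that omit 1 array, 1 strain or 1 dose.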

Additional observations from a re-analysis of the deposited data

How the results depend on the processing

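Of 18 member differences past the test, 385 values under the alternatives kept the direction in every case; 281 kept the call and 104 lost it. Of 18 differences not past it, 21 of 396 values passed and 10 had the opposite sign. Of 44 named list differences, 759 of 992 values kept the call, 233 lost it and none was reversed. The counts of the 7 genes past the test were as follows under the settings that moved them. With no replicate block, that is without the pairing by strain, the count at 60 against 0 g/L was 0, at 60 against 20 g/L 0 and for any dose 0 (of 3, 2 and 2), with 0 of 12 targets of Msn2 and Msn4 higher and 2 of 10 regulators called. The block changed no call at 20 against 0 g/L. With no dose term the count was 0 for KF7 against NBRC2018, 1 for NBRC2018 against NBRC1958 and 1 for any strain (of 2, 5 and 5), and 12 of 30 targets were lower. With the lowest 50% left out, which removes SIP18, the count was 1 at 60 against 20 g/L, 1 for KF7 against NBRC2018 and 1 for any dose. With only the arrays compared it was 2 for KF7 against NBRC1958 (of 0) and 1 for KF7 against NBRC2018, and 5 regulators were called. With dose as a rank the basal count was 0 for KF7 against NBRC1958 and 1 for NBRC2018 against NBRC1958 (of 1 and 4). For the settings so far, the share of all tested genes that passed is not given beside the counts. These counts therefore do not set the 7 genes, the targets or the regulators apart from the array as a whole. Leaving out an array, strain or dose gave 0 to 3 at 60 against 0 g/L, 0 to 4 at 60 against 20 g/L, 0 to 3 for KF7 against NBRC1958, 0 to 4 for KF7 against NBRC2018, 1 to 5 for NBRC2018 against NBRC1958, 1 to 3 for any dose and 1 to 6 for any strain. On the basal level it gave 0 to 2 for KF7 against NBRC1958, 0 to 4 for KF7 against NBRC2018 and 0 to 5 for NBRC2018 against NBRC1958. The targets ran from 1 to 13 higher at 60 against 0 g/L and from 10 to 32 lower in NBRC2018, and the regulators from 2 to 10. Of all tested genes, 2.25% to 22.4% passed in these fits at 60 against 0 g/L and 1.26% to 16.4% at 60 against 20 g/L. Between strains the share was 2.43% to 22.5% (KF7 against NBRC1958), 2.39% to 21.1% (KF7 against NBRC2018) and 3.35% to 29.8% (NBRC2018 against NBRC1958). For any dose the share was 5.96% to 13.7%, and for any strain 15.05% to 39.6%. On the basal level the share was 0.413% to 11.7%, 0.0229% to 10.7% and 0.0229% to 24.8% for these pairs in that order. Signs that turned under left-out arrays were those of TFS1 at 60 against 0 g/L (-0.23 to 0.11), DDR2 for KF7 against NBRC2018 (-0.21 to 1.40), MSN2 for NBRC2018 against NBRC1958 (-0.18 to 0.12), and the slopes of DDR2 (-0.23 to 4.74) and SIP18 (-0.13 to 2.20) for that pair. The cause of each of these changes was not tested.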
